A study of Homo sapiens with 6 samples.

Results

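The genes described here are 10 neighbors at 17q12, the region of chromosome 17 that is amplified together with ERBB2 in several carcinomas and in the SKOV3 ovarian cancer cell line. They are CDK12, PPP1R1B, STARD3, TCAP, PNMT, PGAP3, ERBB2, MIEN1, GRB7 and IKZF3, 10 of the 34834 genes with a quantified transcript. The set was selected on position, and MIEN1 was also selected on its place among the genes with the most counts, so that its level is given as a description. RNA sequencing had been performed on SKOV3 cells transfected with a pool of siRNA against the long non-coding RNA DNM3OS (3 samples) or with non-targeting siRNA (3 samples), each at 50 nM and harvested at 48 h. All 6 samples are the same cell line and were transfected with the same reagent, and nothing in the labels says whether the replicates were separate cultures, so that p-values measure the spread between these samples. The data hold no DNA copy number, and amplification of the locus is background knowledge and not a result.

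ERBB2 encodes HER2, a receptor tyrosine kinase of the plasma membrane that has no known ligand of its own and signals after pairing with EGFR, ERBB3 or ERBB4. Active ERBB receptors recruit adaptors such as GRB7, SHC1 and GRB2 and drive the RAS-MAP kinase and PI3K-AKT pathways. When the locus is amplified, the genes beside ERBB2 are carried along, and several of them are overexpressed in the same tumors.

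Along chromosome 17 of GRCh38, the genes cover 402827 bases, from the start of CDK12 at 39461486 to the end of IKZF3 at 39864312. ERBB2 lies on the plus strand from 39687914 to 39730426, and MIEN1 on the minus strand from 39728496 to 39730532, so that the genes converge and share exonic bases at the 3′ end of ERBB2. PGAP3, on the minus strand from 39671122 to 39696797, is head to head with ERBB2 and shares 144 exonic bases with ERBB2-219, an isoform with an upstream start. In all, 7 of the genes are on the plus strand and 3 on the minus strand. Only ERBB2, MIEN1 and PGAP3 had exons that share bases with an exon on the other strand, at 6.93%, 28.0% and 3.98% of their exonic bases.

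The levels of MIEN1 rested on 2 isoforms that keep an intron, and the sequences of the introns are shown because the isoforms differ in which of them they keep. They are read from the GRCh38 genome on the minus strand, 5′ to 3′, and the capitals mark the GT that opens and the AG that closes each intron, with 10 exonic bases on either side. For the second intron, of 432 bases, only the ends are shown. The last pair is from the plus strand and gives the ends of the 1541-base intron of ERBB2-221, an ERBB2 isoform that reaches across MIEN1.
MIEN1 intron 1, chr17:39730282-39730416: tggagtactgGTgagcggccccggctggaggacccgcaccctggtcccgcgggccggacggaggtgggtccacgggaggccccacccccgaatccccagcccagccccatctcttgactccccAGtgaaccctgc
MIEN1 intron 2, donor end, chr17:39730174-39730203: gggggcacagGTgaggctcgcagaacacct
MIEN1 intron 2, acceptor end, chr17:39729752-39729781: atctgttgatttcttaccAGgtgcctttga
MIEN1 intron 3, chr17:39729596-39729694: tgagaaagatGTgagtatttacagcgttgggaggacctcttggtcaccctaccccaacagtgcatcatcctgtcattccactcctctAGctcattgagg
ERBB2-221 intron, donor end, chr17:39728472-39728501: cagcaatggtGTcagtatccaggctttgta
ERBB2-221 intron, acceptor end, chr17:39730003-39730032: taataggtttttccccacAGgcctctgtga
All 4 introns open with GT and close with AG on the strand of their own gene. Intron 1 of MIEN1 had 115 bases and a GC content of 75.7%, and intron 3 had 79 bases and a GC content of 51.9%.

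The samples held between 1523046 and 1868325 estimated counts on genes, so that 3 counts equal 1.395 to 2.105 CPM (counts relative to the TMM-scaled library size). PLLP alone took between 15.7% and 22.2% of these counts, and 86 ribosomal protein genes together between 0.232% and 0.543%. Genes whose exons share bases with an exon on the opposite strand were 22.7% of all genes and held between 62.5% and 68.5% of the counts. DNM3OS knockdown replicate 1 stood apart, with chi-square statistics per degree of freedom between 11.3 and 13.1 against all samples except non-targeting replicate 2 (5.50), and both had the lowest shares of ribosomal protein counts (0.232% and 0.320%). Of 8 epithelial markers, 6 had enough counts to be tested, among them KRT8 with 1195 to 2566 counts and the ovarian lineage factor PAX8 with 26 to 46, while MUC16 had at most 2. The 5 immune markers summed to between 107 and 126 CPM, of which PTPRC had 91 to 148 counts, whereas CD14 was at 0 in every sample and CD3E had at most 2. Of the 3 endothelial markers, PECAM1 had 24 to 62 counts and VWF at most 1. DNM3OS itself was not analysed here, so that the knockdown was not checked and is taken from the labels.

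MIEN1, which encodes a small membrane-anchored protein linked to cell migration, had far more RNA assigned to it than any other gene of the locus. The 3 knockdown samples had 36214, 24739 and 24569 estimated counts for it, and the 3 controls 42919, 30408 and 33518. It ranked 6 of all genes by mean count and 5 by mean TPM (a level per transcript length, scaled to the same total in each sample). MIEN1 took 1.68% ± 0.226 of the counts with DNM3OS siRNA and 2.09% ± 0.237 with non-targeting siRNA (SD, n = 3 each). Among the 10 genes it held between 95.5% and 96.6% of the counts in each sample.

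Of the 6 MIEN1 isoforms that were quantified, MIEN1-206 and MIEN1-205 held nearly all counts. MIEN1-206, a retained-intron transcript of 1999 bases that runs unspliced through the gene, had 28153, 19714 and 19592 estimated counts in the knockdown and 34209, 24353 and 26878 in the controls. MIEN1-205, a transcript of 806 bases annotated as protein-coding, splices introns 1 and 2 and keeps intron 3, and had 8048, 5011 and 4962 counts in the knockdown and 8684, 6040 and 6632 in the controls. MIEN1-201, the isoform with all 3 introns spliced, had at most 11.3 counts in any sample.

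Isoforms that keep intron 3 thus held between 99.94% and 99.98% of MIEN1 counts in every sample, and those that splice it between 0.0242% and 0.0624%. MIEN1-204 keeps intron 3 as well and was at 0 counts in every sample. Intron 1 was kept in isoforms with 79.1% ± 1.14 of the MIEN1 counts with DNM3OS siRNA and 80.0% ± 0.255 with non-targeting siRNA (SD, n = 3 each). The split between MIEN1-206 and MIEN1-205 was therefore nearly the same in both groups, and the lowest share of MIEN1-206, 77.7%, was in knockdown replicate 1. These are shares of estimated counts, since fragments that fit several isoforms were divided between them by the quantification.

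The isoforms of MIEN1 met ERBB2 to different extents. MIEN1-206 shared 163 bases with the terminal exon of ERBB2-201, the ERBB2 isoform with the most counts, and 404 bases with ERBB2-221. MIEN1-205 ended before that exon and shared 0 bases with ERBB2-201 and 118 bases with ERBB2-221. All 6 MIEN1 isoforms shared at least some bases with ERBB2-221, so that no MIEN1 value was left when transcripts that share bases with an exon of the opposite strand were removed. MIEN1-201 is longer in the annotation used here, at 1397 bases, than in the deposited files, at 1006, and its overlap may differ for the transcript that was quantified. The library kit keeps the strand of the RNA, but whether the strand was used in the quantification is not given in the sources used here, and its part in the level of MIEN1 was not tested.

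**Figure D1:**
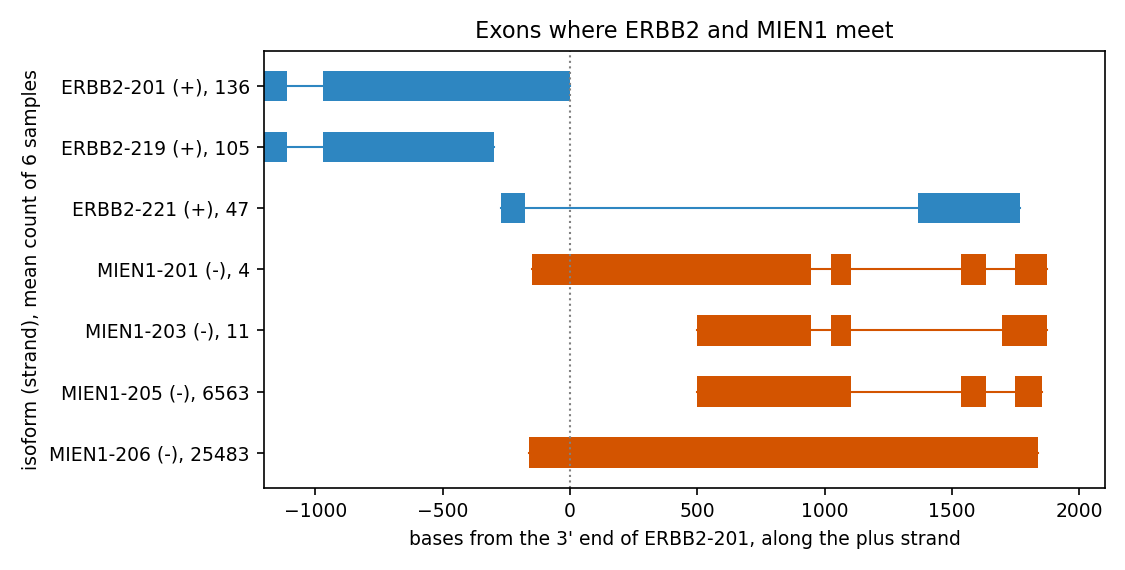
Exons (boxes) and introns (lines) of ERBB2 isoforms (blue, plus strand) and MIEN1 isoforms (orange, minus strand) around the 3′ end of ERBB2-201 (dotted line). The x axis gives bases from that end, and the label of each isoform its mean estimated count over 6 samples. MIEN1-206 and MIEN1-205, both of which keep intron 3, hold nearly all MIEN1 counts, and MIEN1-205 does not reach ERBB2-201.

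ERBB2 came next to MIEN1 in level. Its summed TPM was 208, 343 and 280 in the knockdown and 429, 299 and 337 in the controls, and its rank by mean TPM was 218. MIEN1 had between 48.2 and 96.8 times the TPM of ERBB2, with the highest ratio in knockdown replicate 1. PPP1R1B, which encodes DARPP-32, an inhibitor of protein phosphatase 1, was close to ERBB2, with a TPM of 175, 170 and 236 in the knockdown and 358, 281 and 273 in the controls. ERBB2 had the higher TPM of this pair in all 6 samples, although their ranges overlapped within each group.

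Below them lay STARD3, CDK12 and PGAP3. In the controls the TPM ranges of STARD3, CDK12 and PGAP3 overlapped, whereas in the knockdown STARD3 lay above CDK12 and PGAP3 in every sample, and CDK12 and PGAP3 overlapped. STARD3 encodes a late endosomal cholesterol transporter and had a TPM between 59.9 and 93.6 over the 6 samples. CDK12, a kinase of the RNA polymerase II tail that maintains the expression of DNA repair genes, ranged from 42.0 to 68.2, and PGAP3, an enzyme that remodels the lipid of GPI anchors, from 34.4 to 64.2. IKZF3, the lymphoid transcription factor Aiolos, had a TPM of 15.6 to 25.9, which overlapped that of GRB7 in the controls only.

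GRB7, the adaptor that binds activated ERBB2 through its SH2 domain and lies just beyond MIEN1, was low, with a TPM of 8.56, 7.70 and 14.2 in the knockdown and 22.9, 5.92 and 23.8 in the controls. This rested on between 4 and 16 counts in a sample. The remaining genes were lower still by count. PNMT, which converts noradrenaline to adrenaline, had 7, 2 and 6 counts in the knockdown and 7, 2 and 3 in the controls. TCAP, the titin cap protein of the sarcomere, had 10, 3 and 4 counts against 13, 4 and 4. Neither of the latter 2 genes passed the filter on low counts. Without the filter, PNMT changed by 0.30 and TCAP by -0.34 on the log2 scale, each with an adjusted p of 1 in edgeR's exact test.

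**Figure D2:**
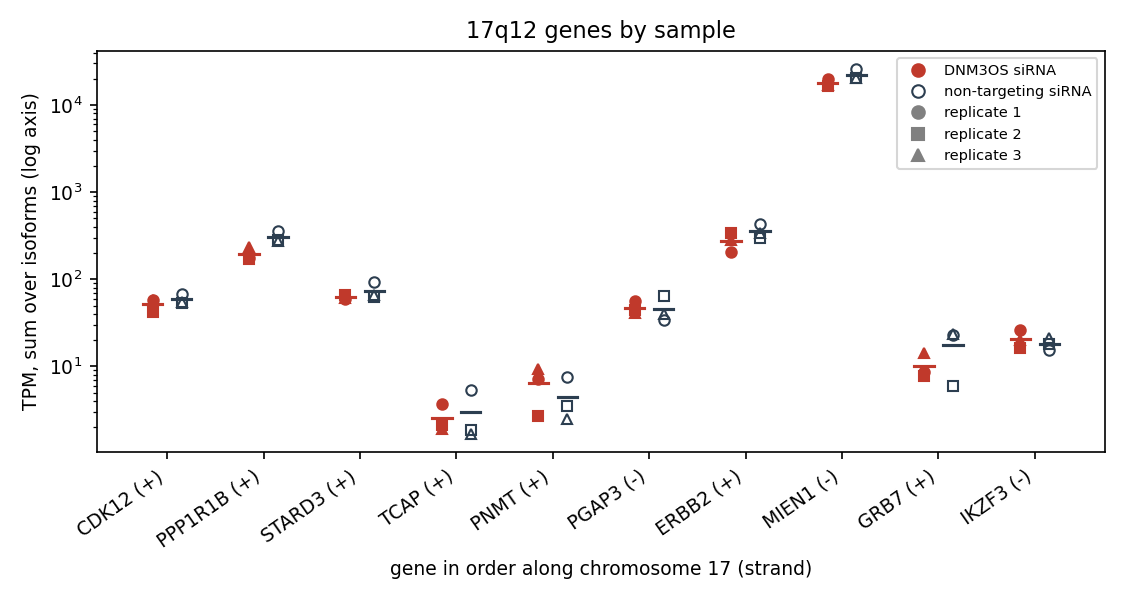
TPM of the 10 genes (log axis), in their order along chromosome 17 with the strand in brackets. Each symbol is a sample (filled red for DNM3OS siRNA, open for non-targeting siRNA, the shape giving the replicate) and the short lines are group means. MIEN1 lies between 16525 and 25922 TPM, ERBB2 and PPP1R1B between 170 and 429, and the other genes below 94.

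The isoforms that carried the counts differed between the genes. ERBB2 had 22 quantified isoforms, of which 12 had a mean of at least 1 count. Retained-intron isoforms held 79.5% of the counts of MIEN1, 75.1% of STARD3, 42.7% of CDK12, 28.9% of GRB7, 19.6% of ERBB2, 9.53% of PPP1R1B and 0% of PGAP3, on the mean over samples. The median over 6449 tested protein-coding genes with such an isoform was 13.2%, and the quartiles were 0.93% and 53.1%. For STARD3, STARD3-206 alone, which retains introns, held between 44.9% and 58.0% of the counts of a sample. For IKZF3, the 9667-base transcript IKZF3-203 held at least 99.6% of the counts in each sample, which sets a low TPM beside 172 to 341 counts. In PGAP3, between 44.4% and 73.0% of the counts were on PGAP3-210, a 538-base isoform whose start lies inside ERBB2. PPP1R1B-201, a protein-coding isoform, held 57.9% ± 4.80 of the PPP1R1B counts with DNM3OS siRNA and 54.9% ± 6.07 with non-targeting siRNA (SD, n = 3 each).

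The isoforms of ERBB2 varied to different extents between samples. Together, the 7 isoforms that hold the terminal exon of ERBB2-201 had 57.4, 133 and 158 CPM in the knockdown and 328, 118 and 238 CPM in the controls. The retained-intron isoforms of ERBB2 stayed between 50.0 and 57.8 CPM in the knockdown and between 53.6 and 75.8 CPM in the controls. ERBB2-221 had 24.2, 31.0 and 30.2 CPM in the knockdown and 22.8, 34.6 and 29.1 CPM in the controls. The 7 remaining isoforms also varied widely, with 13.1, 50.3 and 41.2 CPM in the knockdown and 70.3, 29.5 and 35.05 CPM in the controls. The difference between groups in ERBB2 thus lay mainly in isoforms with the terminal exon, and for these the groups overlapped through non-targeting replicate 2.

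The order of the samples by ERBB2 was also their order by ribosomal protein counts. ERBB2 had 145 CPM in knockdown replicate 1, 239 in non-targeting replicate 2, 269 and 287 in knockdown replicates 2 and 3, and 355 and 497 in non-targeting replicates 3 and 1. Ribosomal protein genes held 0.232%, 0.320%, 0.384%, 0.397%, 0.524% and 0.543% of the counts in the same order. The order was not particular to ERBB2. In that order KRT19, an epithelial marker outside the locus, had 8.84, 32.1, 55.4, 58.9, 65.3 and 104.8 CPM. KRT18 rose likewise up to its highest samples, which were level at 94.0 to 94.1 CPM. Other epithelial markers that were tested did not follow the order. KRT8 had 783, 782, 1310, 1801, 1177 and 1006.5 CPM in it, and CDH1 was highest in knockdown replicate 1, at 27.4 CPM. EPCAM and PAX8 did not follow it either. How many of all tested genes follow the order was not counted. RPL19, a ribosomal protein gene of the large subunit that lies before CDK12 on 17q12, had 32, 173 and 184 counts in the knockdown and 318, 111 and 358 in the controls. An alternative added after the data were seen used the ribosomal protein share as a covariate. With it, the change of ERBB2 was -0.06 on the log2 scale in edgeR's quasi-likelihood test across all genes. The share orders the samples as ERBB2 does, and non-targeting replicates 1 and 3 had its highest values. The covariate can therefore take up a difference between groups, and the fit cannot tell the share from the knockdown. With both libraries of the lowest share left out, the change of ERBB2 was -0.60, against -0.64 with all samples. The adjusted p was 0.0914 in edgeR's exact test on 2 samples against 2. These libraries, knockdown replicate 1 and non-targeting replicate 2, were also the lowest in ERBB2. The removal thus selects on ERBB2 itself, and no conclusion is drawn from this p.

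**Figure D3:**
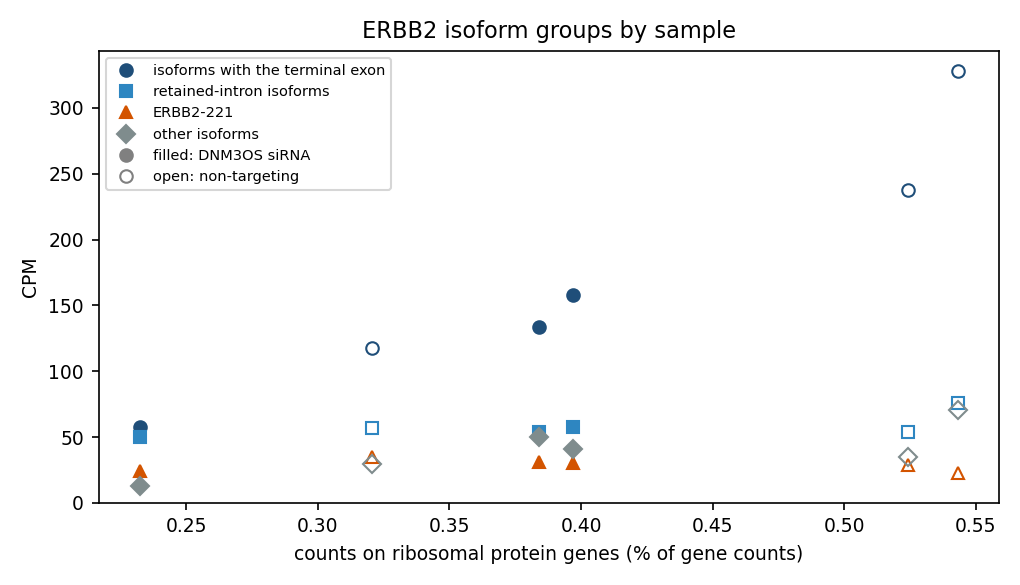
CPM of 4 groups of ERBB2 isoforms (y axis) against the share of gene counts on ribosomal protein genes (x axis, percent), with 1 symbol per sample and group of isoforms (filled for DNM3OS siRNA, open for non-targeting siRNA). Isoforms with the terminal exon run from 57.4 to 328 CPM across the samples, while ERBB2-221 stays between 22.8 and 34.6 CPM.

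To ask whether the locus responded to loss of DNM3OS, knockdown and control samples were compared for all 11814 genes that passed the filter, with edgeR's exact test after TMM normalization and Benjamini-Hochberg (BH) adjustment. Of the 10 genes, 8 passed the filter and 0 passed the threshold (an adjusted p below 0.05 together with a 2-fold change), which 0.00846% of all tested genes passed. By unadjusted p below 0.05, 1 of the 8 genes was lower, against 1.91% of all tested genes that were lower and 2.92% in either direction. With edgeR's quasi-likelihood test and with DESeq2, 0 of the 8 genes passed the threshold as well, and 1 and 2 had an unadjusted p below 0.05. Of all 11814 genes, 219 were lower and 127 higher by that p with the quasi-likelihood test, and 159 and 33 with DESeq2. A lower value in the knockdown was found for 7 of the 8 genes and for 49.4% of all tested genes. Their median log2 fold change was -0.24, against 0.00417 over all tested genes. The 8 genes share a locus and 6 libraries, and their count in 1 direction was not tested.

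PPP1R1B had the lowest p of the locus. It had 133, 157 and 199 CPM in the knockdown and 284, 221 and 238 CPM in the controls, so that every knockdown sample lay below every control. The change was -0.60 on the log2 scale (standard error 0.20, p = 0.0127 and adjusted p = 1 from edgeR's exact test). The exact permutation test of its log2 CPM gave p = 0.1, which is the smallest value that 3 samples against 3 allow in this two-sided test. Leaving out single samples moved the change between -0.77 and -0.46, and with the ribosomal protein share as a covariate it was -0.39.

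ERBB2 was lower by a similar amount with a larger spread. Its mean was 233 ± 77.5 CPM with DNM3OS siRNA and 364 ± 129 CPM with non-targeting siRNA (SD, n = 3 each), and the groups overlapped. The log2 fold change was -0.64 (standard error 0.44, p = 0.0598 and adjusted p = 1 from edgeR's exact test). The change shrank to -0.36 when non-targeting replicate 1 was left out and to -0.38 when knockdown replicate 1 was, and it grew to -0.86 in the absence of non-targeting replicate 2. When ERBB2 transcripts that share bases with an exon of the opposite strand were removed, the change was -0.39, and with length-scaled TPM counts it was -0.35. The removal took out ERBB2-201 and ERBB2-219, the isoforms with the most counts, so that it cannot tell strand overlap from the choice of isoforms.

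MIEN1 had 16844, 16708 and 17240 CPM in the knockdown and 24447, 19908 and 19717 CPM in the controls. In CPM the knockdown samples were close to each other and all below the controls. As an unscaled share of the counts, knockdown replicate 1 (1.94%) lay above non-targeting replicate 3 (1.91%), so that the separation depends on the scaling. The change was -0.34 on the log2 scale (standard error 0.10, p = 0.134 and adjusted p = 1 from edgeR's exact test, and p = 0.1 in the exact permutation test). MIEN1 and PPP1R1B were the 2 of 8 tested genes whose groups did not overlap in CPM, both lower in the knockdown. Of all tested genes, 3.56% were separated in this direction and 4.42% in the other. Leaving out single samples moved the change of MIEN1 between -0.40 and -0.23.

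The other genes of the locus differed between groups by less than their spread or on few counts. CDK12 had 66.0, 71.6 and 88.4 CPM in the knockdown and 95.1, 78.6 and 76.5 CPM in the controls, and changed by -0.15 on the log2 scale (standard error 0.16). STARD3 changed by -0.10 (standard error 0.25) and PGAP3 by -0.0099 (standard error 0.18), and both turned positive when single samples were left out, up to 0.14 and 0.18. GRB7 changed by -0.45 (standard error 0.52) and passed the filter through only 3 samples, knockdown replicate 3 and non-targeting replicates 1 and 3. Of the 8 tested genes, IKZF3 alone had a higher mean in the knockdown, 139 ± 21.4 against 123 ± 17.9 CPM (SD, n = 3 each), and its log2 fold change was 0.18 (standard error 0.18). For these 5 genes the adjusted p was 1 in edgeR's exact test and the groups overlapped.

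**Figure D4:**
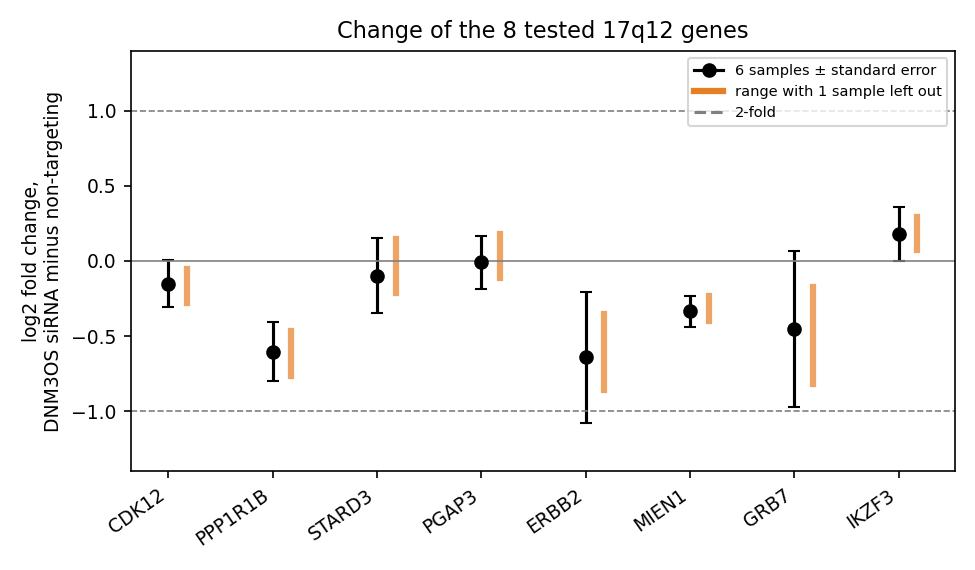
Log2 fold change (DNM3OS siRNA minus non-targeting siRNA) of the 8 tested genes. Black points with bars are the estimates from 6 samples with their standard errors, orange lines the range when 1 sample is left out, and dashed lines mark 2-fold. STARD3 and PGAP3 cross 0 in these ranges, while PPP1R1B, ERBB2, MIEN1, GRB7, CDK12 and IKZF3 keep their direction.

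Genes farther along the chromosome were lower in level than the amplicon genes and had no member past the threshold. Of the 20 quantified protein-coding neighbors (9 before CDK12, NEUROD2 between the genes and 10 after IKZF3), 15 were tested, 10 of these had a lower value in the knockdown, and 0 had an unadjusted p below 0.05 in edgeR's exact test, the quasi-likelihood test or DESeq2. Over all tested genes, 49.4% were lower and 2.92% had an unadjusted p below 0.05 in the exact test. The median log2 fold change of the tested neighbors was -0.12. The median of the mean TPM of the 20 neighbors was 9.89, against 51.1 for the amplicon genes. The neighbors above 51.1 were RPL19, with a mean TPM of 214 in the knockdown and 392.2 in the controls, LASP1, an actin-binding adaptor (62.2 and 73.5), and PSMD3, a proteasome subunit (54.0 and 60.5). No gene outside the locus had an exon opposite an exon of the 10 genes.

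The rest of the ERBB pathway was measured in 49 genes, of which 35 were tested and 0 passed the threshold. In edgeR's exact test, 2.92% of all tested genes had an unadjusted p below 0.05. With that test, the quasi-likelihood test and DESeq2, 0 of the 35 pathway genes did. With the exact test, 25 had a lower and 10 a higher value in the knockdown, and the median log2 fold change was -0.22, against 49.4% lower and a median of 0.00417 over all tested genes. Among the receptors, EGFR had 13, 29 and 16 counts in the knockdown and 42, 17 and 35 in the controls, and changed by -0.62 (standard error 0.54). ERBB3, the partner with which ERBB2 activates PI3K most strongly, had 82, 50 and 40 counts against 53, 43 and 37 (log2 fold change 0.33, standard error 0.18). ERBB4 had at most 9 counts. The adjusted p of EGFR and ERBB3 was 1 in edgeR's exact test.

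Of the 11 ERBB ligands, EREG, NRG1 and NRG4 had enough counts to be tested. NRG4, a neuregulin that binds ERBB4, was higher in every knockdown sample than in any control, with a log2 fold change of 0.16 (standard error 0.05). Of the 26 adaptors and enzymes, 23 were tested, 18 of them lower, and the groups did not overlap for 4, all lower in the knockdown. Over all tested genes, 49.4% were lower, and the groups were separated in 3.56% with the knockdown lower and in 4.42% with it higher. They were PIK3CB, a catalytic subunit of PI3K, with a log2 fold change of -0.53 (standard error 0.18), the focal adhesion kinase gene PTK2 with -0.45 (0.22), the adaptor gene SHC1 with -0.41 (0.13) and AKT2 with -0.31 (0.17). Of the 9 restraints of the pathway, 7 were tested, and CBLB, a ubiquitin ligase that removes active receptors, had groups without overlap and a change of -0.65 (standard error 0.20). The adjusted p of these 6 genes was 1 in edgeR's exact test.

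Among the 11814 tested genes, those whose profile over the 6 samples was most like that of ERBB2 were not on 17q12. The locus holds few of the tested genes, so that this does not show whether its genes vary together, which was not tested. By the root mean square difference of log2 CPM, each centered on its own mean, they were TXNRD1 (0.0760), DHRS2 (0.0818) and HIPK3 (0.0831). For MIEN1 they were SLC30A1 (0.0419), SPAG9 (0.0523) and SLC25A25 (0.0601). Within the locus, the gene most like ERBB2 was PPP1R1B, at 0.279, and the gene most like MIEN1 was CDK12, at 0.144, while ERBB2 and MIEN1 differed by 0.414.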

How the data were processed

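RNA from SKOV3 cells (3 DNM3OS knockdown, 3 non-targeting) was converted to libraries with a stranded total RNA kit after removal of ribosomal RNA. Per the labels and methods, the authors ran kallisto 0.43.0 on paired reads against Ensembl transcripts of GRCh38. The deposited estimated counts are per transcript and not normalized, and the deposited TPM values are scaled for transcript length and to 1 total in every sample. Samples were grouped by their titles.

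Of 173259 transcripts, 155518 matched GENCODE release 44 (GRCh38) by identifier. Estimated counts and TPM were summed per gene, and counts were rounded. Genes were filtered with filterByExpr (minimum count 10), scaled by TMM and compared with edgeR's exact test (edgeR 4.0.16, R 4.3.3). The threshold was 2-fold and an adjusted p below 0.05 over all tested genes. The study used the same test and threshold on gene sums made with tximport. Its filter on low counts is not given, and transcripts without a match were left out here, so that the fits may differ. CPM use TMM-scaled totals. Standard errors come from log2 CPM with a prior count of 2. Alternatives were the quasi-likelihood test with and without a replicate block, DESeq2 1.42.0, RLE, other filters, length-scaled TPM counts, protein-coding genes, removal of transcripts with opposite-strand exon overlap, and leaving out each sample. The scripts were tested on simulated counts.

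The members and lists were chosen with earlier results of these data known. All members were named, as were the ERBB receptors, other pathway genes without overlap between groups (at most 6), neighbors above the members' median TPM, and the 3 genes most like ERBB2 and MIEN1. Exon overlap was computed on the annotation, and 25533 matched transcripts have another length in the files than there.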

Additional observations from a re-analysis of the deposited data

How the results depend on the processing

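None of the 8 tested genes of the locus passed the threshold under any alternative, and with the quasi-likelihood test, DESeq2 and the quasi-likelihood test with a replicate block the number was 0 as well. Over all genes, 1 was down and 0 were up with the exact test. The number down was 0 with the quasi-likelihood test, 0 with a replicate block, 0 with DESeq2, 0 without transcripts sharing opposite-strand exon bases and 0 with the ribosomal protein share as a covariate. It was 2 without a filter, 2 with a filter of 1 CPM in 3 samples and 4 with length-scaled TPM counts, which also gave 2 up. With both libraries of the lowest ribosomal protein share left out, a choice made after seeing the data like the covariate, 31 genes fell and 8 rose. With 1 sample removed at a time, 0 to 3 fell and 0 to 1 rose. The cause was not tested. Of 137 alternative log2 fold changes of the 10 genes, 127 kept their direction and side of the threshold. PGAP3 was 0.032 with length-scaled TPM counts, 0.0080 with protein-coding genes only, 0.213 with both libraries left out and 0.071 on the scale of log2 TPM plus 1. With the covariate, GRB7 was 0.498 and STARD3 0.186. With single samples left out, PGAP3 ranged from -0.11 to 0.18, STARD3 from -0.21 to 0.14, ERBB2 from -0.86 to -0.36, GRB7 from -0.82 to -0.17, CDK12 from -0.28 to -0.05 and IKZF3 from 0.07 to 0.30. Adjusted p ranged over the alternatives from 0.0914 to 1 for ERBB2 and from 0.156 to 1 for PPP1R1B. Both low ends came from leaving out both libraries of the lowest ribosomal protein share, which were also the lowest in ERBB2.

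The groups share replicate numbers. Deviations from the group means correlated at -0.40, -0.34 and 0.23 between samples with the numbers 1, 2 and 3. These values gave no sign of pairing by number, but with 3 samples per group they cannot exclude a shared batch. Knockdown replicate 1 correlated best with non-targeting replicate 2 (0.53). With the replicate block the change was -0.63 for ERBB2, -0.33 for MIEN1 and -0.61 for PPP1R1B, and 0 genes passed the threshold with it as without it. At an unadjusted p below 0.05, 107 genes were lower and 53 higher with the block, and 219 and 127 without it. DESeq2 gave 159 lower and 33 higher.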
